A study of Mus musculus with 12 samples.

Results

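Hepatocyte and bile duct identity was examined with 10 marker genes, 5 for products that hepatocytes secrete (*Alb*, *Afp*, *Ttr*, *Apoa1* and *Apoa2*) and 5 for proteins of the bile duct lining (*Spp1*, *Cftr*, *Aqp1*, *Sctr* and *Slc4a2*). They were listed by name as markers of the 2 epithelial cell types of the liver, with earlier results of these data known. They are 10 of the 47069 genes in the count table, and 5 of them (*Alb*, *Afp*, *Apoa2*, *Spp1* and *Slc4a2*) held enough reads to enter the 16157 genes that were tested. *Ttr*, *Apoa1*, *Cftr*, *Aqp1* and *Sctr* did not, and are described by their reads only.

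RNA was sequenced from cells of mouse liver cancer organoids, 3D cultures grown from tumors that the carcinogen diethylnitrosamine had induced. All 12 libraries carried the strain label C57BL/6, the tissue label Liver cancer and the genotype LGR5-DTRGFP+, in which the *Lgr5* locus drives both the diphtheria toxin receptor and GFP, so that GFP stands for LGR5. The cells were sorted into LGR5+ and LGR5- fractions and came from untreated organoids or from organoids given 5-FU (5-fluorouracil, an antimetabolite that blocks thymidylate synthesis and is built into RNA). Each of the 4 groups had 3 libraries. The study's sorts removed dead cells and CD45+ leucocytes. By the study's methods, carcinogen injections began in mice a few weeks old, which were killed months after the last injection. The dose and duration of 5-FU, the organoid line and the age of the source animal are not given for these libraries in the sources used here. The sources also do not say that replicates were separate cultures, so *P* values measure the spread between these libraries, which may be technical.

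Hepatocytes and cholangiocytes, the cells of the bile ducts, arise from a common precursor, the hepatoblast. Hepatocytes fill the blood with albumin, transthyretin and apolipoproteins under the control of HNF4α, and fetal liver and many hepatocellular carcinomas make α-fetoprotein. Cholangiocytes express the keratins KRT7 and KRT19 and modify bile: secretin binds its receptor, cAMP opens the chloride channel CFTR, the exchanger AE2 trades chloride for bicarbonate, and water follows through AQP1.

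The libraries held 13750591 to 19323514 counted reads. Where no read was counted, the true level may still be up to 3 reads, or 0.165 to 0.220 TMM-scaled CPM (reads scaled to a common library size), depending on the library, a limit that covers counting error only, since PCR reads without molecular identifiers are not independent molecules. Mitochondrial genes took 1.47% to 3.08% of the reads except in LGR5- replicate 3, with 6.93% for the untreated and 6.44% for the 5-FU-treated library. The level of a group is the mean TMM-scaled CPM with the SD over its 3 libraries. Groups were compared by edgeR's quasi-likelihood test, and a gene was called changed at a Benjamini-Hochberg adjusted *P* under 0.05 over all 16157 genes tested. The 10 genes fell into 4 that were above 3 reads in every library (*Afp*, *Apoa2*, *Spp1* and *Slc4a2*), 4 above it in some libraries (*Alb* in 11, *Cftr* in 9, *Apoa1* in 5 and *Aqp1* in 1) and 2 never above it (*Ttr* and *Sctr*).

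*Alb* and *Afp*, which encode albumin and its fetal relative α-fetoprotein, lie 14135 bp apart on the same strand of chromosome 5. *Afp* passed a test between groups and *Alb* did not, at far fewer reads, and the 2 genes were not tested against each other. The 250 bases before each start site are shown to set the neighbors side by side. They come from RefSeq on GRCm38.p6, at chr5:90460620-90460869 for *Alb* and chr5:90490464-90490713 for *Afp*, both on the plus strand and written 5′ to 3′. Capitals mark TATAAA, the TATA box.
Alb: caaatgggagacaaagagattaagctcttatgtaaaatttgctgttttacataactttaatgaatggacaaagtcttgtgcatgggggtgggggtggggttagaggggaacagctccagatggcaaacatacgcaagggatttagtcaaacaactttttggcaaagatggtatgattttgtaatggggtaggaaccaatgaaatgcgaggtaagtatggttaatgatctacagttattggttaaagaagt
Afp: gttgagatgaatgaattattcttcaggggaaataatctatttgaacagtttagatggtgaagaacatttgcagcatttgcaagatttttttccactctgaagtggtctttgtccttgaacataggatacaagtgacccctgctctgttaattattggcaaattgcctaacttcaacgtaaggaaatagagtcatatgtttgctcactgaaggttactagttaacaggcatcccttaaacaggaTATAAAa

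The TATA box begins 7 bases before the *Afp* start as RefSeq places it, and the *Alb* window holds no TATAAA. GENCODE M21, whose positions are given with each gene, places the *Afp* start 24 bases past the end of its window, so that the box begins 30 bases before it, and the *Alb* start 28 bases past the end of its window, so that the bases next to that start were not searched. These letters, searched on the gene strand, were present in 7.59% of the 32851 promoter windows of this length. Among the 8 genes of the list that were matched in the table, *Spp1* and *Apoa2* each held a TATAAA in 1 of their 2 windows, and the windows of *Apoa1*, *Cftr*, *Aqp1* and *Slc4a2* held none. A match describes the letters and is not evidence of binding.

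The hepatocyte genes other than *Afp* had few reads. *Alb* had 2 to 33 reads a library and *Apoa2* had 19 to 43, so that their ranges overlapped, whereas *Apoa1* was above 3 reads in 5 libraries and *Ttr* in none. *Alb* (ENSMUSG00000029368, chromosome 5 from 90460897 to 90476602), whose transcript is among the most abundant in normal liver, had 10, 21 and 5 reads in untreated LGR5- cells, 22, 13 and 9 in untreated LGR5+ cells, 31, 14 and 2 in 5-FU-treated LGR5- cells and 33, 5 and 12 in 5-FU-treated LGR5+ cells. The 4 groups overlapped, and the highest and lowest libraries were both from 5-FU-treated cells. Mean levels were 0.679 ± 0.442, 0.869 ± 0.371, 0.930 ± 0.844 and 0.944 ± 0.817 CPM in the same order (SD, n = 3 each). The change with 5-FU was 0.12 on the log2 scale in LGR5+ cells (standard error 0.79, edgeR adjusted *P* = 0.942) and 0.47 in LGR5- cells (standard error 0.80, edgeR adjusted *P* = 0.747). A single library set both signs: the values were -0.83 without 5-FU LGR5+ replicate 1 and -0.45 without 5-FU LGR5- replicate 1.

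*Afp* rose with 5-FU in both fractions. *Afp* (ENSMUSG00000054932, chromosome 5 from 90490737 to 90508907) had 297, 385 and 178 reads in untreated LGR5- cells, 319, 292 and 183 in untreated LGR5+ cells, 915, 467 and 692 in 5-FU-treated LGR5- cells and 966, 466 and 638 in 5-FU-treated LGR5+ cells. Every 5-FU-treated library lay above every untreated library, and replicate 3 was the lowest library in both untreated groups. Mean levels were 16.3 ± 5.80 CPM in untreated LGR5- cells, 15.8 ± 4.19 CPM in untreated LGR5+ cells, 44.0 ± 14.5 CPM in 5-FU-treated LGR5- cells and 39.1 ± 14.4 CPM in 5-FU-treated LGR5+ cells (SD, n = 3 each).

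The rise of *Afp* was 2.48-fold in LGR5+ cells (log2 fold change 1.31, standard error 0.34, edgeR adjusted *P* = 0.0177) and 2.69-fold in LGR5- cells (log2 fold change 1.43, standard error 0.34, edgeR adjusted *P* = 0.0118). In LGR5+ cells the call was lost without untreated LGR5+ replicate 3 (1.11, adjusted *P* = 0.0859), without 5-FU LGR5+ replicate 1 (1.0, adjusted *P* = 0.0707) and with no filter on low counts (1.28, adjusted *P* = 0.0552). In LGR5- cells it was lost when replicate 3, the library with the high mitochondrial share, was left out of both LGR5- groups (1.05, adjusted *P* = 0.107). Over all alternatives the log2 fold change stayed between 1.0 and 1.54 in LGR5+ cells and between 1.05 and 1.67 in LGR5- cells.

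Of the other hepatocyte genes, *Apoa2* did not pass the test and *Apoa1* and *Ttr* were too low for one. *Apoa2*, for the second apolipoprotein of high-density lipoprotein (chromosome 1 from 171225054 to 171226379), had 19, 31 and 29 reads in untreated LGR5- cells, 26, 28 and 29 in untreated LGR5+ cells, 28, 35 and 40 in 5-FU-treated LGR5- cells and 23, 26 and 43 in 5-FU-treated LGR5+ cells. The groups overlapped, and the log2 fold change with 5-FU was 0.08 in LGR5+ cells (standard error 0.38, edgeR adjusted *P* = 0.919) and 0.56 in LGR5- cells (standard error 0.38, edgeR adjusted *P* = 0.367). *Apoa1*, for the main protein of the same particle (chromosome 9 from 46228580 to 46230466), had at most 11 reads and no read in untreated LGR5+ replicate 1 and 5-FU LGR5- replicate 2. *Ttr*, for transthyretin, the carrier of thyroid hormone and of retinol-binding protein (chromosome 18 from 20665280 to 20674321), had 1 read in each of 5-FU LGR5- replicates 2 and 3 and none in the other 10 libraries. For *Apoa1* and *Ttr* no test was made, so an unaltered level was not shown, and differences of a few reads were not detectable at this depth.

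**Figure D1:**
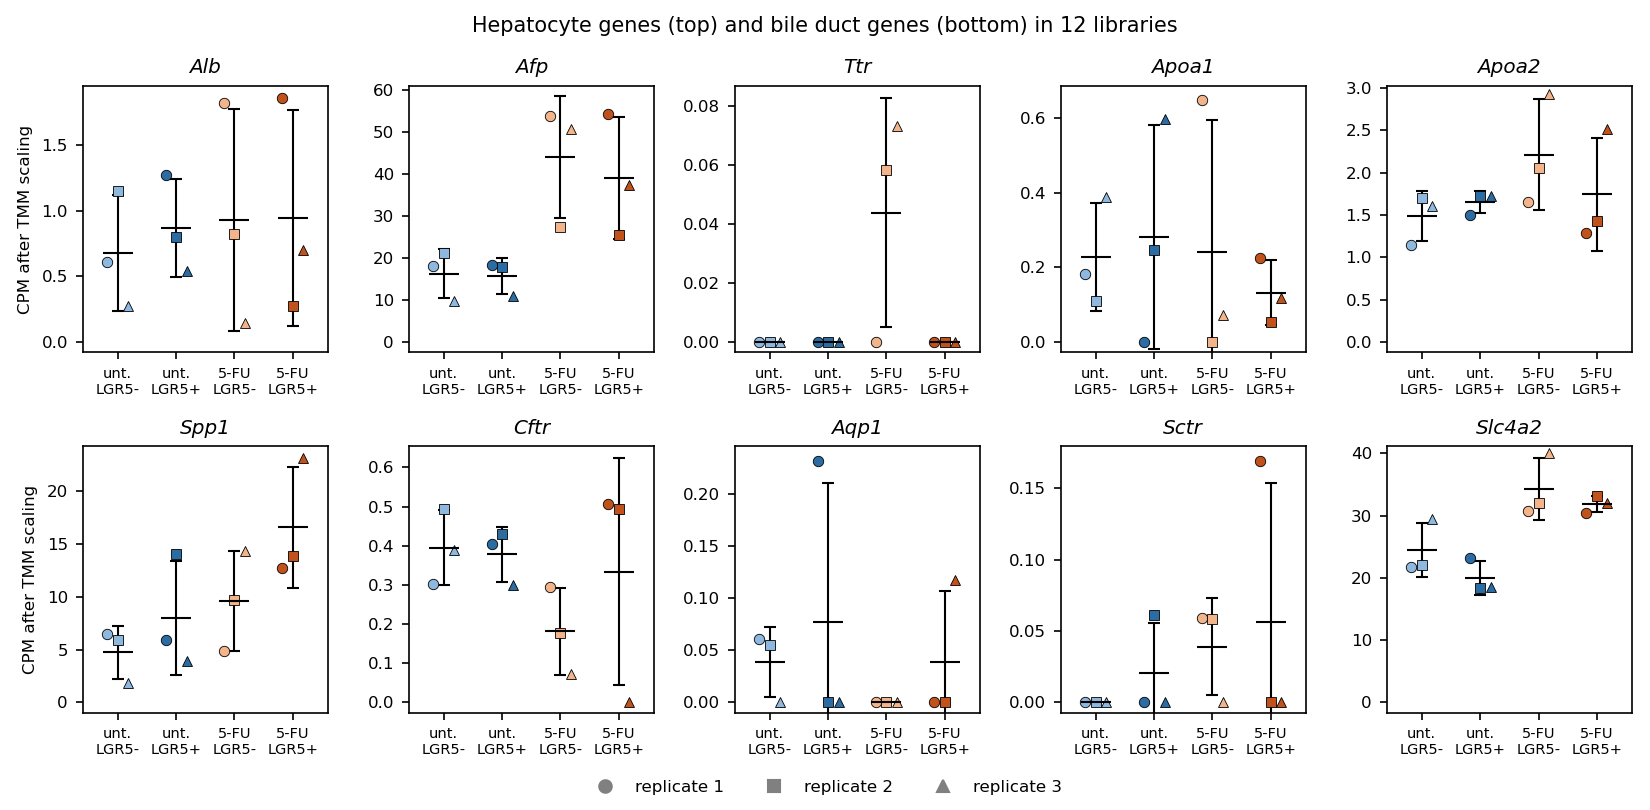
Level of each of the 10 genes in the 12 libraries, in CPM after TMM scaling on an axis of its own for each gene. Points are libraries (circle, square and triangle for replicates 1, 2 and 3), lines are group means and bars are 1 SD. *Afp* lies between 9.88 and 21.1 CPM in all untreated libraries and between 25.6 and 54.3 CPM in all 5-FU-treated libraries, whereas the axes of *Ttr*, *Aqp1* and *Sctr* end below 0.3 CPM.

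Among the bile duct genes, *Slc4a2* rose with 5-FU in LGR5+ cells and *Spp1* was higher on average after 5-FU without passing the test. *Slc4a2* (ENSMUSG00000028962, chromosome 5 from 24423837 to 24440950) encodes AE2, the chloride and bicarbonate exchanger, which is also made in many other epithelia. It had 360, 403 and 532 reads in untreated LGR5- cells, 401, 299 and 309 in untreated LGR5+ cells, 523, 547 and 545 in 5-FU-treated LGR5- cells and 543, 602 and 548 in 5-FU-treated LGR5+ cells. Mean levels were 24.5 ± 4.38, 20.0 ± 2.74, 34.3 ± 4.99 and 31.9 ± 1.30 CPM in the same order (SD, n = 3 each). As CPM, every 5-FU-treated library lay above every untreated library, with the highest untreated library (LGR5- replicate 3, 29.5 CPM) close to the lowest treated one (LGR5+ replicate 1, 30.5 CPM).

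The rise of *Slc4a2* in LGR5+ cells was 1.59-fold (log2 fold change 0.67, standard error 0.18, edgeR adjusted *P* = 0.0188). It lost the call without untreated LGR5+ replicate 2 (0.62, adjusted *P* = 0.0732) or 3 (0.62, adjusted *P* = 0.0822), without 5-FU LGR5+ replicate 2 (0.65, adjusted *P* = 0.0716) or 3 (0.67, adjusted *P* = 0.0640), and when counts were scaled by library size only (0.59, adjusted *P* = 0.0664). In LGR5- cells the log2 fold change was 0.48 (standard error 0.18, edgeR adjusted *P* = 0.0832), which passed without untreated LGR5- replicate 3 (0.64, adjusted *P* = 0.0230) and without replicate 3 of both LGR5- groups (0.52, adjusted *P* = 0.0484). *Slc4a2* shares 1141 exon bases, 13.7% of its exon length, with *Fastk* on the opposite strand, and reads from overlapping exons cannot be told apart unless counting used strand, which the sources do not state. *Fastk* itself had log2 fold changes of -0.18 (edgeR adjusted *P* = 0.487) and -0.07 (edgeR adjusted *P* = 0.815) with 5-FU in LGR5+ and LGR5- cells.

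*Spp1* encodes osteopontin, a secreted phosphoprotein that duct cells and macrophages both make (ENSMUSG00000029304, chromosome 5 from 104435118 to 104441050). It had 107, 107 and 33 reads in untreated LGR5- cells, 103, 230 and 65 in untreated LGR5+ cells, 82, 166 and 195 in 5-FU-treated LGR5- cells and 226, 253 and 397 in 5-FU-treated LGR5+ cells. Treated and untreated libraries overlapped, with untreated LGR5+ replicate 2 inside the range of the treated LGR5+ libraries. Mean levels were 4.73 ± 2.53, 7.99 ± 5.42, 9.62 ± 4.74 and 16.6 ± 5.75 CPM (SD, n = 3 each, same order).

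With 5-FU, the log2 fold change of *Spp1* was 1.06 in LGR5+ cells (standard error 0.52, edgeR adjusted *P* = 0.192) and 1.02 in LGR5- cells (standard error 0.53, edgeR adjusted *P* = 0.228). The first was 1.75 without untreated LGR5+ replicate 2 (adjusted *P* = 0.0523), and the second was 0.24 without replicate 3 of both LGR5- groups (adjusted *P* = 0.827). Of 10 macrophage and leucocyte genes, 4 were tested. *Lyz2* and *Cd68* rose in the same comparisons, by 1.79 and 2.06 on the log2 scale in LGR5+ cells (edgeR adjusted *P* = 0.00263 and 0.00173) and by 3.56 and 1.95 in LGR5- cells (edgeR adjusted *P* = 4.44e-05 and 0.00326). *Cd14* and *Ptprc* did not pass, with log2 fold changes of 0.26 and 1.28 in LGR5+ cells (edgeR adjusted *P* = 0.547 and 0.289) and 0.40 and 0.94 in LGR5- cells (edgeR adjusted *P* = 0.336 and 0.459). The other 6 were too low to test: *Adgre1*, *Csf1r*, *C1qa* and *C1qb* reached at most 7, 11, 5 and 9 reads in a library. The summed level of the 10 genes was 40.7 to 43.4 CPM in untreated LGR5- cells, 56.9 to 92.2 in untreated LGR5+ cells, 101 to 166 in 5-FU-treated LGR5- cells and 119.8 to 185 in 5-FU-treated LGR5+ cells. This sum was mostly *Lyz2*, *Cd14* and *Cd68*, with means of 42.8, 37.4 and 20.7 CPM over the 12 libraries, against 0.637 for *Ptprc*. *Clec4f* and *Marco* had no read in any library, and *Ptprc*, the pan-leucocyte gene, reached 36 reads at most. Their part in the levels of *Spp1* was not tested. As in any bulk library, fewer cells of a type and less RNA per cell cannot be told apart.

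The channels and the receptor of secretin-driven secretion were close to absent. *Sctr*, for the secretin receptor (chromosome 1 from 120006894 to 120063536), had 1 read in untreated LGR5+ replicate 2, 1 in each of 5-FU LGR5- replicates 1 and 2, 3 in 5-FU LGR5+ replicate 1 and none elsewhere. *Aqp1*, for the water channel of the duct membrane (chromosome 6 from 55336432 to 55348555), had 1, 1 and 0 reads in untreated LGR5- cells, 4, 0 and 0 in untreated LGR5+ cells, none in 5-FU-treated LGR5- cells and 0, 0 and 2 in 5-FU-treated LGR5+ cells. *Cftr*, for the cAMP-gated chloride channel (chromosome 6 from 18170687 to 18322768), had 5, 9 and 7 reads in untreated LGR5- cells, 7, 7 and 5 in untreated LGR5+ cells, 5, 3 and 1 in 5-FU-treated LGR5- cells and 9, 9 and 0 in 5-FU-treated LGR5+ cells. *Cftr* was thus above 3 reads in all 6 untreated libraries and in 3 of the 6 treated ones, with overlap between treatments. No test was made for these 3 genes, and *Cftr* shares 129 exon bases with the antisense gene *Gm15592*.

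In the comparison of 5-FU-treated with untreated LGR5+ cells, 2 of the 5 tested genes passed (*Afp* and *Slc4a2*), both higher, against 16.0% of all genes tested. In LGR5- cells 1 of 5 passed (*Afp*), against 15.4% of all genes. The median change of all genes tested was -0.02 in LGR5+ and -0.05 in LGR5- cells on the log2 scale.

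**Figure D2:**
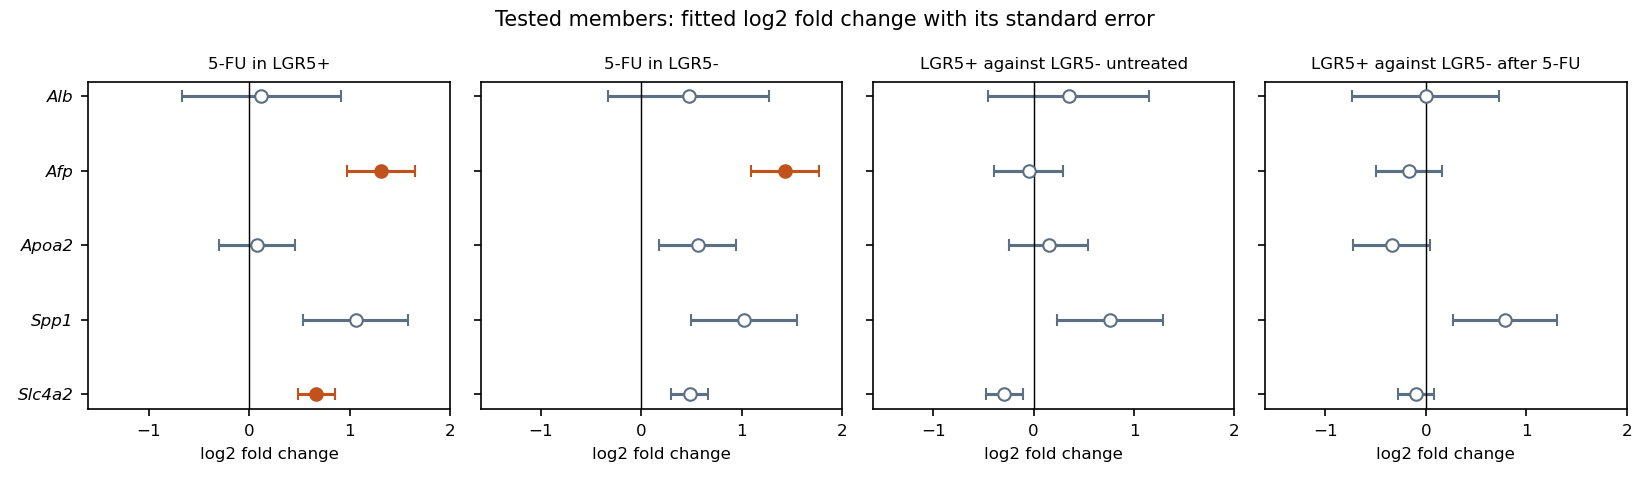
Fitted log2 fold change of the 5 tested genes in 4 comparisons, with bars of 1 standard error. Filled orange points have an edgeR adjusted *P* under 0.05: *Afp* at 1.31 and 1.43 and *Slc4a2* at 0.67 with 5-FU, and none between LGR5+ and LGR5- cells.

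No difference between LGR5+ and LGR5- cells was detected for these genes. In edgeR's test 0 of the 5 genes passed between LGR5+ and LGR5- cells, untreated or after 5-FU, against 0% of all genes in both comparisons, and 0 of the 5 had an unadjusted *P* under 0.05, against 1.32% of all genes in untreated cells and 13.0% after 5-FU. DESeq2 also called 0 of the 5, with 0 and 80 genes called in all. For *Afp* the LGR5+ over LGR5- log2 fold change was -0.05 in untreated cells (standard error 0.34, edgeR adjusted *P* = 1) and -0.17 after 5-FU (standard error 0.33, edgeR adjusted *P* = 0.821). For *Slc4a2* it was -0.29 (standard error 0.18, edgeR adjusted *P* = 1) and -0.10 (standard error 0.18, edgeR adjusted *P* = 0.793). The largest of these values were those of *Spp1*, 0.76 in untreated cells (standard error 0.53, edgeR adjusted *P* = 1, and 0.06 without untreated LGR5+ replicate 2) and 0.79 after 5-FU (standard error 0.52, edgeR adjusted *P* = 0.483).

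Libraries with the same replicate number deviated together in the 5-FU-treated groups, so the numbers were taken to pair them. No source states this pairing, which was inferred from these same data. Within these pairs the LGR5+ over LGR5- ratio of CPM was 2.63, 1.43 and 1.62 for *Spp1*, above 1 in 3 of 3 pairs, and 0.785, 0.698 and 0.857 for *Apoa2*, below 1 in 3 of 3. For *Alb* the ratios were 1.02, 0.336 and 4.78. With the pair as a block and only these 6 libraries fitted, the difference of *Spp1* was 0.78 on the log2 scale (edgeR adjusted *P* = 0.0542) and that of *Apoa2* -0.43 (edgeR adjusted *P* = 0.409), while the number of genes called over the whole table went from 0 to 451. No gene of the list was among the calls.

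**Figure D3:**
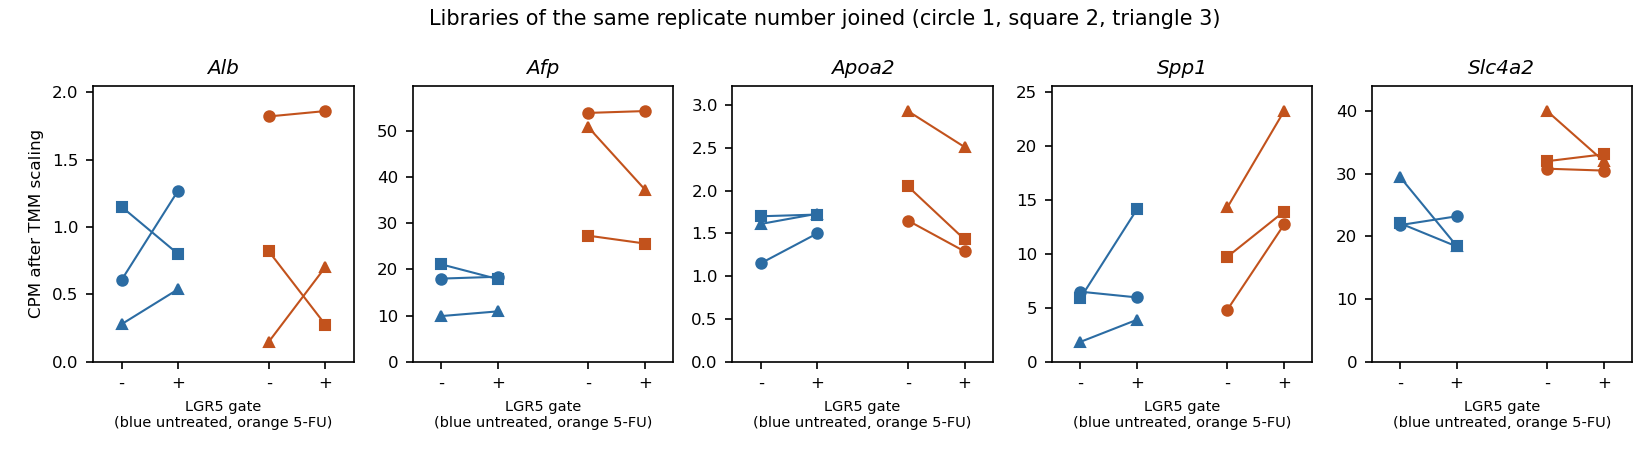
CPM after TMM scaling of the 5 tested genes in LGR5- and LGR5+ libraries, with libraries of the same replicate number joined (blue untreated, orange 5-FU-treated). The numbers were taken to pair the 5-FU-treated libraries only, which no source states. In those 3 pairs *Spp1* is higher in LGR5+ cells (ratios 1.43 to 2.63) and *Apoa2* lower (0.698 to 0.857).

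A difference between the fractions in the response to 5-FU was also not detected for any of the 5 genes. The difference between the log2 responses of LGR5+ and LGR5- cells was -0.12 for *Afp* (standard error 0.48), 0.19 for *Slc4a2* (0.25), 0.04 for *Spp1* (0.75), -0.35 for *Alb* (1.12) and -0.48 for *Apoa2* (0.54), each with an adjusted *P* of 1 in edgeR. Of all genes 0% passed this test, and 0 of the 5 had an unadjusted *P* under 0.05, against 1.57% of all genes. DESeq2 called 0 genes.

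Per kilobase of exon, the order of levels over the 12 libraries was *Afp* at 8.55 CPM per kilobase, *Spp1* at 5.91, *Slc4a2* at 3.32, *Apoa2* at 3.30, *Alb* at 0.365, *Apoa1* at 0.178, *Cftr* at 0.0415, *Aqp1* at 0.0147, *Sctr* at 0.0144 and *Ttr* at 0.00927. The order of the 4 highest genes was not the same in every group. In untreated LGR5+ cells *Spp1* stood at 4.85 ± 3.29, *Afp* at 4.68 ± 1.24, *Apoa2* at 3.08 ± 0.242 and *Slc4a2* at 2.40 ± 0.329 CPM per kilobase, whereas in 5-FU-treated LGR5+ cells *Afp* stood at 11.6 ± 4.28, *Spp1* at 10.1 ± 3.49, *Slc4a2* at 3.83 ± 0.157 and *Apoa2* at 3.25 ± 1.25 (SD, n = 3 each). The ranges of these 4 genes over the 12 libraries overlapped and stayed above that of *Alb*, and from *Alb* downward the range of each gene overlapped that of the next. Among the 27566 genes with a read and a known length, whose median was 0.638, *Afp* stood above 82.9% and *Alb* above 43.9%. *Krt19* stood above 99.7% at 880.2 CPM per kilobase and *Epcam* above 99.5% at 587. The most abundant hepatocyte gene of the list was therefore far below the keratin that marks duct cells and other simple epithelia.

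*Hnf4a*, *Afp*, *Krt19* and *Epcam* encode the markers with which the study typed organoids into forms like hepatocellular carcinoma or cholangiocarcinoma. The study shows its typing by protein staining of several lines, whereas the values here are RNA of sorted cells from an unnamed line. They do not test that typing. *Hnf4a*, for the nuclear receptor at the center of the hepatocyte program, had 2 reads in 5-FU LGR5+ replicate 3 and none in the other 11 libraries. *Krt19* had 6169 to 9446 reads in untreated and 17614 to 76666 reads in 5-FU-treated libraries, with no overlap. It rose by 2.95 on the log2 scale in LGR5+ cells (standard error 0.31, edgeR adjusted *P* = 2.05e-05) and by 2.35 in LGR5- cells (standard error 0.30, edgeR adjusted *P* = 1.68e-04). *Epcam*, an adhesion molecule of epithelia, did not pass, with log2 fold changes of -0.13 (edgeR adjusted *P* = 0.745) and -0.50 (edgeR adjusted *P* = 0.164).

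A wider panel of 37 hepatocyte genes showed the same split between a few expressed genes and many near 0. In every library 19 of them held at most 3 reads, and 10 had no read at all, among them the fibrinogen genes *Fga*, *Fgb* and *Fgg*, the bile acid enzyme *Cyp7a1*, the bile salt pump *Abcb11*, the urea cycle enzyme *Otc* and the gluconeogenic enzymes *G6pc* and *Pck1*. The highest per kilobase was *Apoe*, the lipoprotein gene that macrophages and other cells also make, with a mean of 220.4 CPM per kilobase. Of the 13 panel genes tested, 3 rose and 2 fell with 5-FU in LGR5+ cells and 3 rose and none fell in LGR5- cells, against 16.0% and 15.4% of all genes called, with medians of -0.10 and -0.17 on the log2 scale. These counts changed when a single library was left out: the 5 calls in LGR5+ cells became 1 without untreated LGR5+ replicate 3 or 5-FU LGR5+ replicate 2, 2 without 5-FU LGR5+ replicate 3 and 3 without untreated LGR5+ replicate 2, and the 3 in LGR5- cells became 0 without untreated LGR5- replicate 2 and 1 without untreated or 5-FU LGR5- replicate 1.

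The genes that follow were among those with the smallest *P* values of the panel. *Hpx*, for the heme carrier hemopexin, rose from 5 reads over the 3 untreated libraries to 33 over the 3 treated ones in LGR5+ cells (0.101 ± 0.0725 and 0.622 ± 0.150 CPM, edgeR adjusted *P* = 0.0188), too few for a firm fold. It rose from 0.289 ± 0.117 to 1.5 ± 0.691 CPM in LGR5- cells (log2 fold change 2.35, standard error 0.57, edgeR adjusted *P* = 0.0123, SD with n = 3 each). *Hp*, for the acute-phase hemoglobin carrier haptoglobin, rose by 1.12 in LGR5- cells (edgeR adjusted *P* = 0.0308) and by 1.04 in LGR5+ cells (edgeR adjusted *P* = 0.0405). In LGR5+ cells *Ass1*, a urea cycle enzyme present in many tissues, rose by 0.96 (edgeR adjusted *P* = 0.00972), and *Glul*, glutamine synthetase, had a log2 fold change of -0.69 (edgeR adjusted *P* = 0.0105). In LGR5- cells the values were 0.41 and -0.48 (edgeR adjusted *P* = 0.263 and 0.0639).

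Of the bile duct panel of 26 genes, 22 were above 3 reads in every library. *Onecut1*, *Slc10a2* and *Cys1* held at most 3 reads in every library, and *Krt18* was highest per kilobase with a mean of 1666 CPM per kilobase. Of 22 genes tested, 9 rose and 1 fell with 5-FU in LGR5+ cells, and 8 rose and 1 fell in LGR5- cells, against 16.0% and 15.4% of all genes called, with medians of 0.51 and 0.26 on the log2 scale. *Krt7*, the partner keratin of *Krt19*, rose by 2.64 in LGR5+ cells (standard error 0.34, edgeR adjusted *P* = 1.27e-04) and by 1.75 in LGR5- cells (standard error 0.33, edgeR adjusted *P* = 0.00292). *Prom1*, for the membrane protein CD133, was lower in both fractions. Its log2 fold change was -1.44 in LGR5- cells (standard error 0.19, edgeR adjusted *P* = 1.74e-04) and -0.98 in LGR5+ cells (standard error 0.18, edgeR adjusted *P* = 0.00208).

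These keratins are not specific to ducts, and most listed genes of squamous and basal epithelium and some of lung epithelium also rose with 5-FU. The summed level of 7 squamous and basal genes was 42.5 to 68.1 CPM in untreated LGR5- cells, 37.3 to 127 in untreated LGR5+ cells, 195 to 486 in 5-FU-treated LGR5- cells and 847 to 1411 in 5-FU-treated LGR5+ cells, and *Krt14* was the highest per kilobase at a mean of 94.7 CPM per kilobase. Of the 7, 6 rose in each fraction, against 16.0% and 15.4% of all genes called in either direction. Of 13 lung epithelium genes, 6 rose in LGR5+ cells and 5 in LGR5- cells, and none passed as lower, against the same shares of all genes. In LGR5+ and LGR5- cells, *Nkx2-1* (log2 fold changes 0.22 and 0.26), *Abca3* (-0.01 and 0.08) and *Sftpc* (-1.03 and -1.26) did not pass. The part of either list in the rise of the duct keratins was not tested.

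The machinery of duct secretion around *Sctr*, *Cftr*, *Slc4a2* and *Aqp1* was present although the secretin receptor itself was not above 3 reads in any library. Of 19 further genes of this pathway, 16 were above 3 reads in every library, led per kilobase by the carbonic anhydrase gene *Car2* with a mean of 659 CPM per kilobase. Of 17 tested, 3 rose and 1 fell with 5-FU in LGR5+ cells, and 2 rose and 1 fell in LGR5- cells, against 16.0% and 15.4% of all genes called. *Ano1*, a chloride channel opened by calcium, rose by 1.39 in LGR5+ and 1.13 in LGR5- cells (edgeR adjusted *P* = 0.00131 and 0.00629). *P2ry2*, a receptor for extracellular ATP, rose by 1.20 in LGR5+ cells (edgeR adjusted *P* = 0.0128) and had a log2 fold change of 0.74 in LGR5- cells (edgeR adjusted *P* = 0.115). *Vipr1*, a receptor for the peptide VIP, had log2 fold changes of -1.26 and -1.61 (edgeR adjusted *P* = 0.0283 and 0.00948). The sodium bicarbonate cotransporter gene *Slc4a4* rose by 0.89 in LGR5- cells (edgeR adjusted *P* = 0.0447) and had a log2 fold change of 0.81 in LGR5+ cells (edgeR adjusted *P* = 0.0623). The 4 calls in LGR5+ cells became 1 without untreated LGR5+ replicate 3 or 5-FU LGR5+ replicate 2, 2 without 5-FU LGR5+ replicate 3, 8 without replicate 3 of both LGR5- groups and 9 with only the compared libraries fitted, and the 3 in LGR5- cells became 5 without untreated LGR5- replicate 3.

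The tissue label was checked against markers of other cells. The 13 lung epithelium genes were all tested, and *Sftpc*, for surfactant protein C of the lung alveolus, had the highest level of them with a mean of 7413 CPM per kilobase. Their summed level was 3636 to 17616 CPM in untreated LGR5- cells, 5088 to 15948 in untreated LGR5+ cells, 4540 to 6708 in 5-FU-treated LGR5- cells and 3241 to 6482 in 5-FU-treated LGR5+ cells, a sum made up mostly of *Sftpc*. *Sftpc* itself did not pass with 5-FU, with log2 fold changes of -1.03 in LGR5+ cells (standard error 0.55, edgeR adjusted *P* = 0.228) and -1.26 in LGR5- cells (standard error 0.55, edgeR adjusted *P* = 0.147). The median change of the 13 genes was 1.19 and 1.35 on the log2 scale, against -0.02 and -0.05 for all genes tested. Defining hepatocyte markers (*Hnf4a*, *Ttr* and the fibrinogen genes) were thus at or near 0 under the liver cancer label, keratins of ducts and other epithelia were high, and *Sftpc* was above the highest of them in the panels (*Krt18*, 1666) in mean CPM per kilobase over the 12 libraries. What this says of the origin of the cells was not tested.

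**Figure D4:**
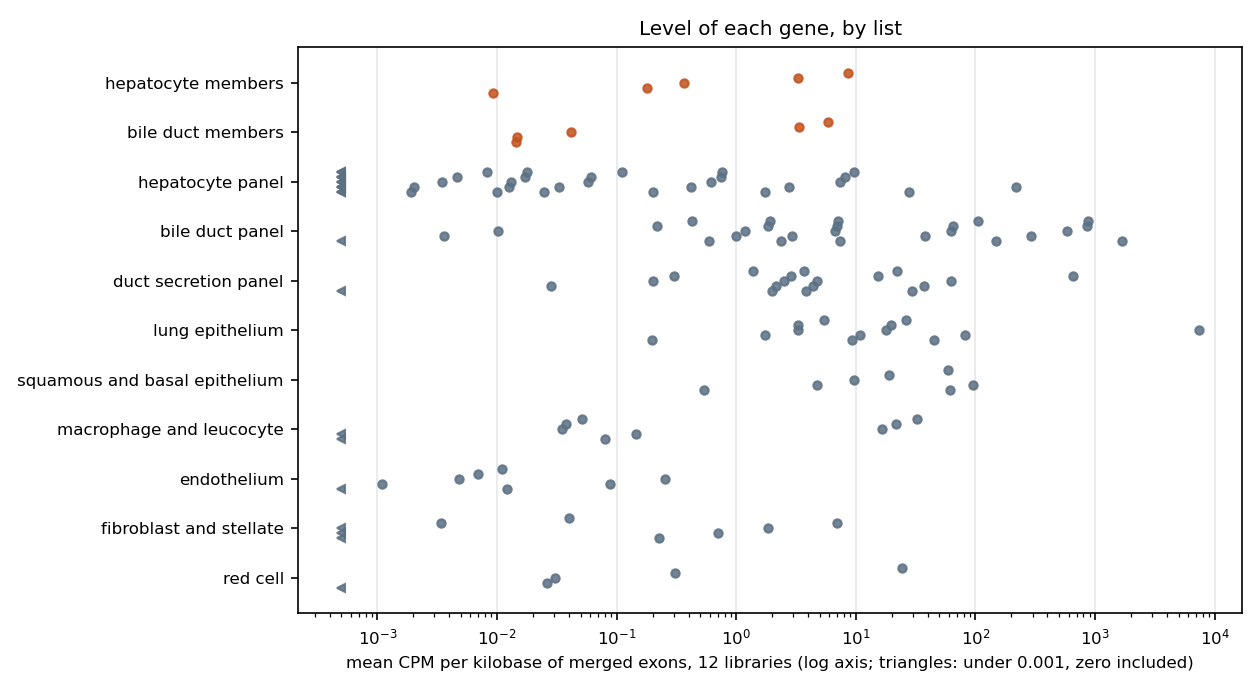
Mean CPM per kilobase of exon over the 12 libraries for each gene of the 10 (orange) and of the comparison lists (gray), on a log axis, with triangles for genes under 0.001. The hepatocyte panel spreads from no reads to *Apoe*, whereas *Krt19* and *Epcam* of the bile duct panel (880.2 and 587) and *Sftpc* of the lung list lie at the right.

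Markers of endothelium, stroma and red cells were also read. Of 8 endothelial genes 5 held at most 3 reads in every library (*Cdh5*, *Tek*, *Emcn*, *Stab2* and *Lyve1*), and *Kdr* was the highest at a mean of 0.254 CPM per kilobase. Of 9 fibroblast and stellate cell genes 4 did (*Col1a2*, *Col3a1*, *Lum* and *Reln*), whereas *Dcn*, for the matrix proteoglycan decorin, had a mean of 7.01 CPM per kilobase, above 80.5% of ranked genes. Of 5 red cell genes 2 did (*Hbb-bs* and *Hbb-bt*), while the α-globin gene *Hba-a1* rose by 6.73 and 6.86 on the log2 scale with 5-FU in LGR5+ and LGR5- cells (edgeR adjusted *P* = 1.15e-06 and 2.17e-06).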

How the data were processed

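Bulk RNA was sequenced from 12 libraries in 4 groups of 3, which were mapped to groups by their sample titles. RNA was amplified with a SMARTer kit before paired-end sequencing. The deposited table holds, per Ensembl gene and library, whole-number counts that the authors did not normalize, and the submitters' processing notes name HISAT2, HISAT, TopHat2, HTSeq and the build mm8 without versions or roles. Strand use in counting is not given in the sources used here. Of 47069 identifiers, 46488 matched a symbol in GENCODE M21 and 581 did not. Positions and exon lengths are those of GENCODE M21 on GRCm38, and describe that annotation and not the counting.

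The software was edgeR 4.0.16 and DESeq2 1.42.0, with limma 3.58.1, under R 4.3.3. Counts passing filterByExpr (16157 genes) were scaled by TMM and fitted by glmQLFit (robust) with 4 group means, and contrasts were tested by glmQLFTest with Benjamini-Hochberg adjustment. The biological coefficient of variation was 26.6%. Standard errors were derived from the size of each log2 fold change and the root of the F value. The fits were tested on simulated counts. Levels of different genes were ranked per kilobase of merged exons. The genes and lists were chosen with earlier results of these data known. Genes named were the 10 genes, the 4 markers the study used to type organoids, up to 3 genes with the smallest *P* among those called per panel and contrast, and the 2 tested genes most alike each of the 10 genes that averaged at least 1 CPM. *Lyz2*, *Cd68*, the other leucocyte genes, *Hba-a1*, *Nkx2-1*, *Abca3* and overlapping genes were named after their values were seen. So were the values of *Slc4a4*, *Hp* and *Prom1* in LGR5+ cells and of *Krt7*, *Ass1*, *Glul* and *P2ry2* in LGR5- cells.

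Deviations from group means correlated between libraries of the same number at 0.57, 0.22 and 0.30 for the 5-FU-treated LGR5- and LGR5+ groups, all above 0.1. For the untreated groups the values were 0.48, -0.12 and 0.22, so the numbers were taken to pair the treated groups only. Treated libraries of unlike number (LGR5- replicate 3 and LGR5+ replicate 2) also reached 0.12, and no source states the pairing. As alternatives, the filter, the scaling, the tool, the libraries fitted, a replicate block and each library in turn were changed. The block with only the compared libraries was added after seeing the data. Some items are not reported here.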

Additional observations from a re-analysis of the deposited data

How the results depend on the processing

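Single libraries set most of the calls. In LGR5+ cells the 2 genes called with 5-FU became 1 with no filter on low counts and 1 with scaling by library size only, and 0 to 2 when 1 library was left out. In LGR5- cells the 1 gene called became 1 to 2 when 1 library was left out, and without replicate 3 of both LGR5- groups the call passed from *Afp* to *Slc4a2*. No log2 fold change of a tested gene with a call reversed under any alternative run. The replicate block left 2 and 1 genes of the list called with 5-FU and 0 in the other 3 comparisons, alone or, within each treatment or fraction, with only the compared libraries. The number of genes detected in every library was 4 and ranged from 4 to 5.

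Over all genes, 1373 to 4448 were called with 5-FU in LGR5+ cells (4448 without replicate 3 of both LGR5- groups, 4045 with only the compared libraries, 1373 without 5-FU LGR5+ replicate 3) and 1282 to 3418 in LGR5- cells (1282 with only the compared libraries). Between the treated fractions 0 became 11 with no filter, 80 with DESeq2 and 451 with the block and only the compared libraries. The number of bile duct panel genes called with 5-FU ranged from 9 to 14 and from 7 to 11. Levels under 3 reads are not resolved at this depth.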

Other observations

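For each of the 10 genes that averaged at least 1 CPM, the genes with the most similar levels across the 12 libraries were listed by Pearson's r of log2 CPM. This is a description across libraries that share treatment groups and replicate numbers. *Afp* was most like *Dpep2* (r = 0.970), a membrane dipeptidase gene, and *B2m* (r = 0.964), the light chain of MHC class I. *B2m* rose with 5-FU from 717 ± 199 to 1866 ± 882 CPM in LGR5+ cells (SD, n = 3 each, log2 fold change 1.38, edgeR adjusted *P* = 0.0236). *Slc4a2* was most like the mucin gene *Muc15* (r = 0.964) and *B230208H11Rik* (r = 0.963), *Spp1* like *Aig1* (r = 0.936) and *Galnt4* (r = 0.931), and *Apoa2* like *Ciao2b* (r = 0.930) and *Pcbd2* (r = 0.907). *Muc15* had only 0 to 11 reads in untreated and 12 to 30 in 5-FU-treated libraries, so its r rests on few reads.

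Genes next to the listed ones on the chromosome were looked at after the values were known. *Afm*, the albumin relative 10025 bp beyond *Afp*, had a mean of 0.0107 CPM, and *Ankrd17* on the other side of *Alb* had log2 fold changes with 5-FU of -0.32 (edgeR adjusted *P* = 0.343) in LGR5+ and 0.01 (edgeR adjusted *P* = 0.974) in LGR5- cells. *Apoc3* and *Apoa4*, the apolipoprotein genes beside *Apoa1*, had no read. *Dsg3*, a desmoglein gene of stratified epithelium 117821 bp from *Ttr*, rose with 5-FU from 10 reads over 3 libraries to 198 in LGR5+ cells (edgeR adjusted *P* = 6.16e-04) and from 1 read to 53 in LGR5- cells (edgeR adjusted *P* = 0.00149), while *Ttr* had at most 1 read in a library.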
